A study of Bos taurus with 24 samples.

Results

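The genes described here are 8 transcriptional regulators that are known for granulosa cell identity and for the control of steroid hormone synthesis: NR5A2, NR5A1, GATA4, GATA6, FOXL2, WT1, RUNX1 and NR0B1. They were chosen by name and looked up among the 27607 genes of the deposited count table, where all 8 were found, and all 8 were among the 14298 genes that passed the filter on low counts. The RNA came from granulosa cells of cattle, in 24 sequenced libraries. Granulosa cells are the somatic cells that surround and nourish the oocyte in the ovarian follicle. In order of follicle growth, the groups were granulosa cells of secondary follicles (secondary_GC, 4 libraries), cumulus cells of early antral follicles (early_CC, 5 libraries), mural granulosa cells of early antral follicles (early_MGC, 5 libraries), cumulus cells of late antral follicles (late_CC, 5 libraries) and mural granulosa cells of late antral follicles (late_MGC, 5 libraries). Cumulus cells enclose the oocyte, mural cells line the follicle wall, and the antrum is the fluid-filled cavity that forms between them. The study asked whether granulosa cells of different stages can regrow the thin cytoplasmic projections by which they contact the oocyte, and how expression differs among those stages. The labels give no genotype, breed, age, follicle diameter or treatment for any group, and they do not say whether the sequenced cells had been cultured or whether the libraries of a group came from separate animals. Every p-value below therefore measures only the spread between these libraries.

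NR5A2 and NR5A1 are nuclear receptors of the same family that bind similar DNA elements and drive genes of steroid synthesis. GATA4 and GATA6 are zinc finger factors that act beside them on several of the same promoters. FOXL2 and RUNX1 are known, mainly from mice and goats, for keeping the ovarian somatic lineage from turning to its testicular counterpart. WT1 is a zinc finger factor of the early gonad and of immature follicles, and NR0B1 is a corepressor that binds NR5A receptors and lowers their activity.

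Total counts ran from 8379801 to 31762400 per library. Levels are given in CPM, the gene's counts scaled to a common library total, and fold changes come from edgeR's quasi-likelihood test with TMM scaling, with a gene counted as called at a Benjamini-Hochberg adjusted p under 0.05 over all 14298 genes. The granulosa marker FSHR, the receptor of follicle-stimulating hormone, lay between 201 and 424 CPM in every library but late_MGC 3, where it was 10.6 CPM. That library also held 276 CPM of the stromal marker DCN, against 2.22 to 3.69 CPM in the other late_MGC libraries, and its 11 matched theca and stroma markers summed to 2124 CPM, against 219.8 to 381 CPM there. These markers did not move together: 7 of the 11 lay above all other late_MGC libraries, led by LUM at 1621 CPM, while 3 lay below them, among them the theca hormone gene INSL3 at 1.87 CPM against 190 to 349 CPM. Of its 12 granulosa markers 8 lay below and 3 above the other late_MGC libraries, and the higher ones were CDH2 and the keratin genes KRT8 and KRT18, with KRT8 at 2829 CPM against 6.77 to 18.3 CPM. The theca enzyme gene CYP17A1 was at 0 in every group except late_MGC, where late_MGC 3 alone had it, at 0.161 CPM. Late_CC 3 had a summed granulosa marker level of 6661 CPM, against 19863 to 32253 CPM in the other late_CC libraries. These 2 libraries had the lowest mean correlations with the rest of their groups, 0.890 and 0.933 (log2(CPM + 1) over the tested genes), against 0.950 to 0.982 in the others. Early_MGC 4 was set apart as the shallowest library. Its mean correlation of 0.955 lay in the range of the other groups but was the lowest of its own, against 0.967 to 0.971 in the other early_MGC libraries. Counts of calls are also given without these 3 libraries, under a filter applied anew. All 12 granulosa markers had counts in every group. The 8 endothelial markers summed to 2.09 to 11.3 CPM in late libraries other than late_MGC 3, which had 26.3 CPM, against 11.3 to 46.3 CPM in early antral and secondary libraries. Over all libraries the 7 matched blood cell markers summed to 0.493 to 9.79 CPM and the 9 matched oocyte markers to 2.22 to 34.4 CPM, with the oocyte genes BMP15 and FIGLA at 0 throughout.

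Per kilobase of summed exon length, which allows genes to be set side by side, NR5A2 was the highest of the 8 in late_CC, at 152 ± 41.8 CPM per kilobase (SD, n = 5), and in late_MGC, at 73.1 ± 23.8 CPM per kilobase (SD, n = 5). In secondary_GC the highest was GATA4, at 44.5 ± 12.9 CPM per kilobase, followed by WT1 at 33.9 ± 5.13 CPM per kilobase and NR5A1 at 25.3 ± 5.06 CPM per kilobase (SD, n = 4). FOXL2 was low in every group, between 0.451 ± 0.267 CPM per kilobase in late_MGC and 2.0 ± 1.27 CPM per kilobase in late_CC (SD, n = 5). Its gene model has 1 exon of 1134 bases. The exon lengths of FOXL2, GATA6, WT1 and RUNX1 are multiples of 3. Reads on untranslated ends that a model lacks go uncounted, which would lower the gene's CPM and change its level per kilobase. Whether any of these models lacks such ends was not tested. The exon lengths of the others ran up to 6040 bases, in NR5A2.

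**Figure D1:**
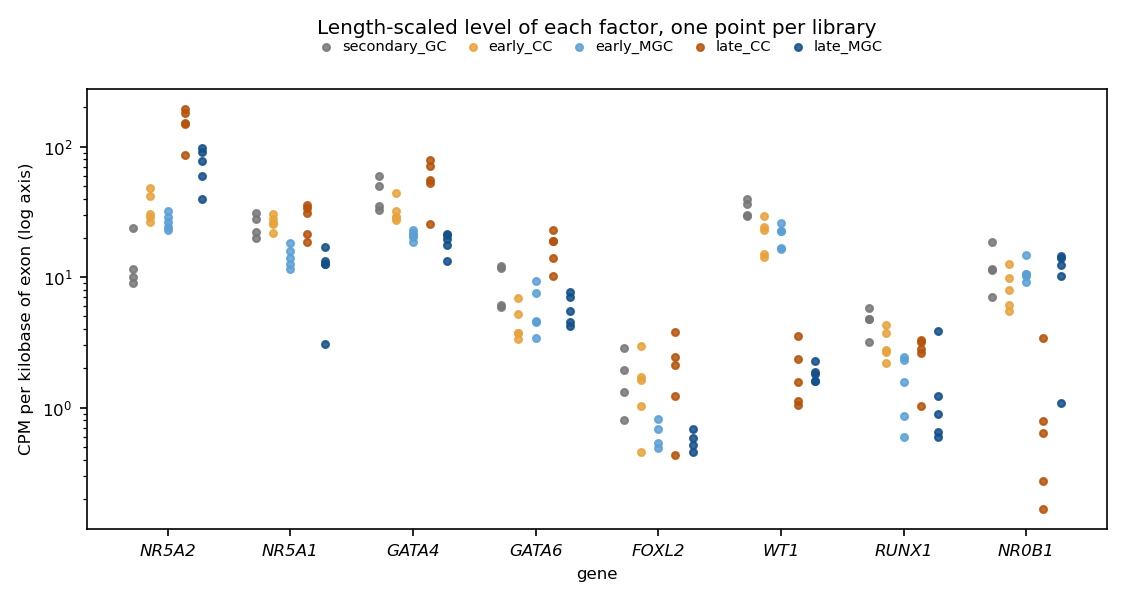
Level of each gene in each of the 24 libraries, in CPM per kilobase of summed exon length on a log axis, with a column of points per group in order of follicle growth. NR5A2 stood above the other genes in late_CC and late_MGC, FOXL2 was low in every group, and 2 libraries in which FOXL2 had no count (early_MGC 4 and late_MGC 3) are not drawn.

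In cumulus cells, 5 of the 8 genes changed between the antral stages. NR5A2, GATA4 and GATA6 rose and WT1 and NR0B1 fell in late_CC against early_CC, where 45.2% of all tested genes were called, 22.5% higher and 22.7% lower. With 8 genes a share is coarse, and neither this count nor those that follow was tested against the share of all genes. In mural cells, 2 of the 8 changed between the same stages, in the same directions as in cumulus cells: NR5A2 rose and WT1 fell in late_MGC against early_MGC, where 19.1% of all tested genes were called, 9.77% higher and 9.3% lower. Without the 3 libraries named above, 5 and 2 genes were again called in these comparisons, beside 50.0% and 23.8% of all tested genes.

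Between the cell types of late antral follicles, 6 of the 8 differed. NR5A2, NR5A1, GATA4, GATA6 and FOXL2 were higher, and NR0B1 lower, in late_CC than in late_MGC, where 39.7% of all tested genes were called, 18.9% higher and 20.8% lower. With the 3 libraries left out, RUNX1 joined them and 7 were called, beside 42.1% of all tested genes. Between early_CC and early_MGC none of the 8 was called by edgeR's quasi-likelihood test, where 13.1% of all tested genes were, 6.71% higher and 6.39% lower. At an unadjusted p under 0.05, 4 of the 8 passed (NR5A1, GATA4, FOXL2 and RUNX1, each higher in early_CC). DESeq2 called 0, and without the 3 libraries edgeR called 2, NR5A1 and GATA4, beside 17.5% of all tested genes. The interaction, which tests whether the change from early to late stage differed between cumulus and mural cells, was called for 3 of the 8 (GATA4, GATA6 and NR0B1), where 31.4% of all tested genes were called, 14.5% with a positive and 16.9% with a negative difference. Without the 3 libraries it was again called for 3 of the 8, beside 34.9% of all tested genes.

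Against secondary follicles, NR5A2 was the gene of the 8 called in all 4 antral groups. It was the sole call in early_CC minus secondary_GC, where 1.99% of all tested genes were called (0.944% higher, 1.05% lower), and DESeq2 called 2, the other being GATA6, lower in early_CC. In early_MGC minus secondary_GC 3 of the 8 were called (NR5A2 higher, GATA4 and RUNX1 lower), where 9.1% of all tested genes were called (5.01% higher, 4.08% lower). In late_CC minus secondary_GC 4 were called (NR5A2 and GATA6 higher, WT1 and NR0B1 lower), where 46.0% of all tested genes were called (22.9% higher, 23.1% lower). In late_MGC minus secondary_GC 5 were called (NR5A2 higher, NR5A1, GATA4, WT1 and RUNX1 lower), where 31.8% of all tested genes were called (16.6% higher, 15.3% lower). DESeq2 called 6 there, the other being FOXL2, lower in late_MGC. On leaving out the 3 libraries, the edgeR counts of these 4 comparisons were 2, 4, 6 and 5, beside 9.2%, 13.6%, 51.0% and 39.6% of all tested genes.

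**Figure D2:**
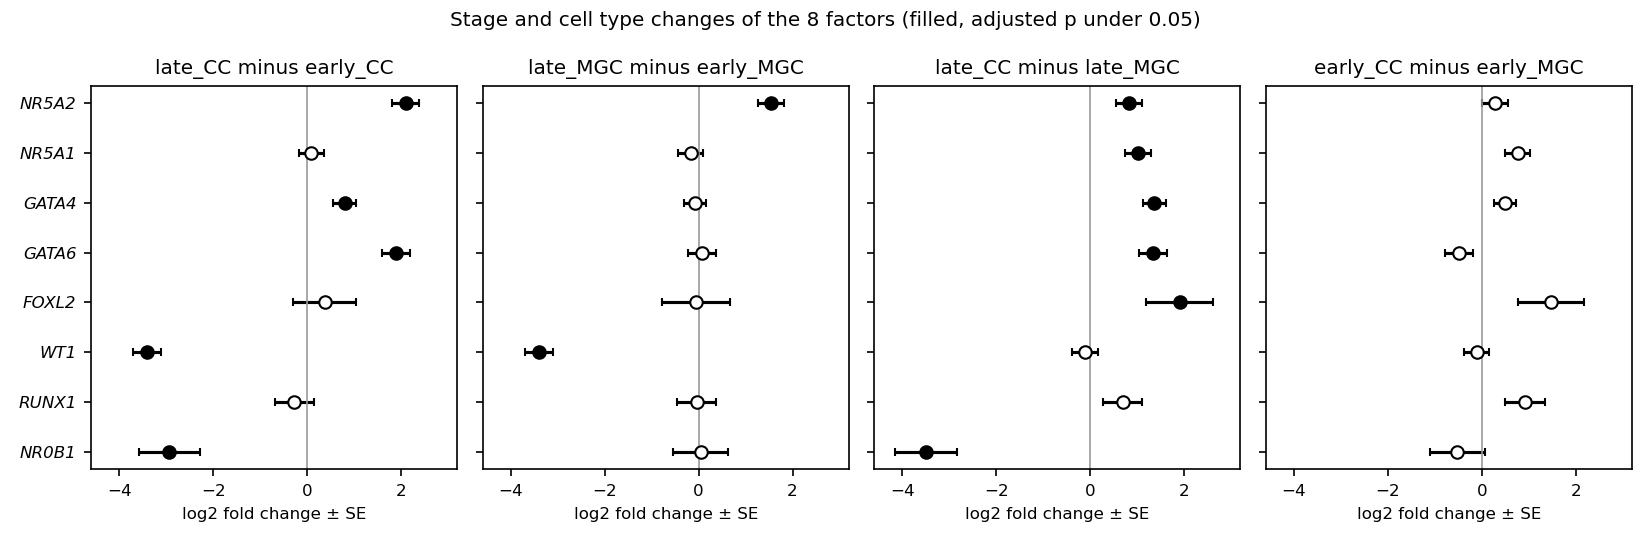
Log2 fold changes of the 8 genes with their standard errors in 4 comparisons of antral groups, with filled points where the adjusted p was under 0.05. NR5A2 rose and WT1 fell at the late stage in both cell types, while GATA6 rose and NR0B1 fell in cumulus cells, with log2 fold changes of 1.89 and -2.93.

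NR5A2, also called LRH-1, was higher at each later stage in both cell types. Its identifier is ENSBTAG00000009265, and the table places it on chromosome 16 at 78828931 to 78957232 of the ARS-UCD1.2 genome. It had 54.4, 145, 70.3 and 60.2 CPM in the secondary_GC libraries. It had 174, 185, 289.8, 255 and 159 CPM in early_CC and 175, 193, 138, 161 and 145 CPM in early_MGC. It had 906, 912, 519, 1178 and 1087 CPM in late_CC and 360.3, 549, 239, 592 and 467 CPM in late_MGC. Every late_CC library lay above every early_CC library and every late_MGC library above every early_MGC library, whereas late_CC overlapped late_MGC through late_CC 3, and early_MGC overlapped secondary_GC through secondary_GC 2, the highest of its group.

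From early to late stage NR5A2 rose in cumulus cells by 2.1 ± 0.29 on the log2 scale (SE, adjusted p = 3.8e-06, edgeR), to 920.4 ± 253 CPM in late_CC against 213 ± 56.6 CPM in early_CC (SD, n = 5 each). In mural cells it rose by 1.54 ± 0.28 (SE, adjusted p = 0.00043, edgeR), to 442 ± 143 CPM in late_MGC against 162 ± 22.2 CPM in early_MGC (SD, n = 5 each). The difference between these changes was 0.56 ± 0.39 and was not called (adjusted p = 0.291, edgeR). At the late stage it was 0.83 ± 0.28 higher in late_CC than in late_MGC on the log2 scale (adjusted p = 0.0189, edgeR). Already in early antral follicles it was above secondary_GC, by 1.40 ± 0.30 in early_CC (adjusted p = 0.0123, edgeR) and by 1.12 ± 0.30 in early_MGC (adjusted p = 0.0214, edgeR). The early_CC call was lost without secondary_GC 4 (adjusted p = 0.061, edgeR), and the early_MGC call without secondary_GC 1 or 4 (adjusted p up to 0.092, edgeR). In order of level, late_CC, late_MGC, early_CC, early_MGC and secondary_GC followed each other, and each step was called except that between early_CC and early_MGC, which was 0.28 ± 0.28 (adjusted p = 0.554, edgeR). The step between late_MGC and early_CC was 1.27 ± 0.28 (adjusted p = 0.00177, edgeR), where 24.9% of all tested genes were called.

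**Figure D3:**
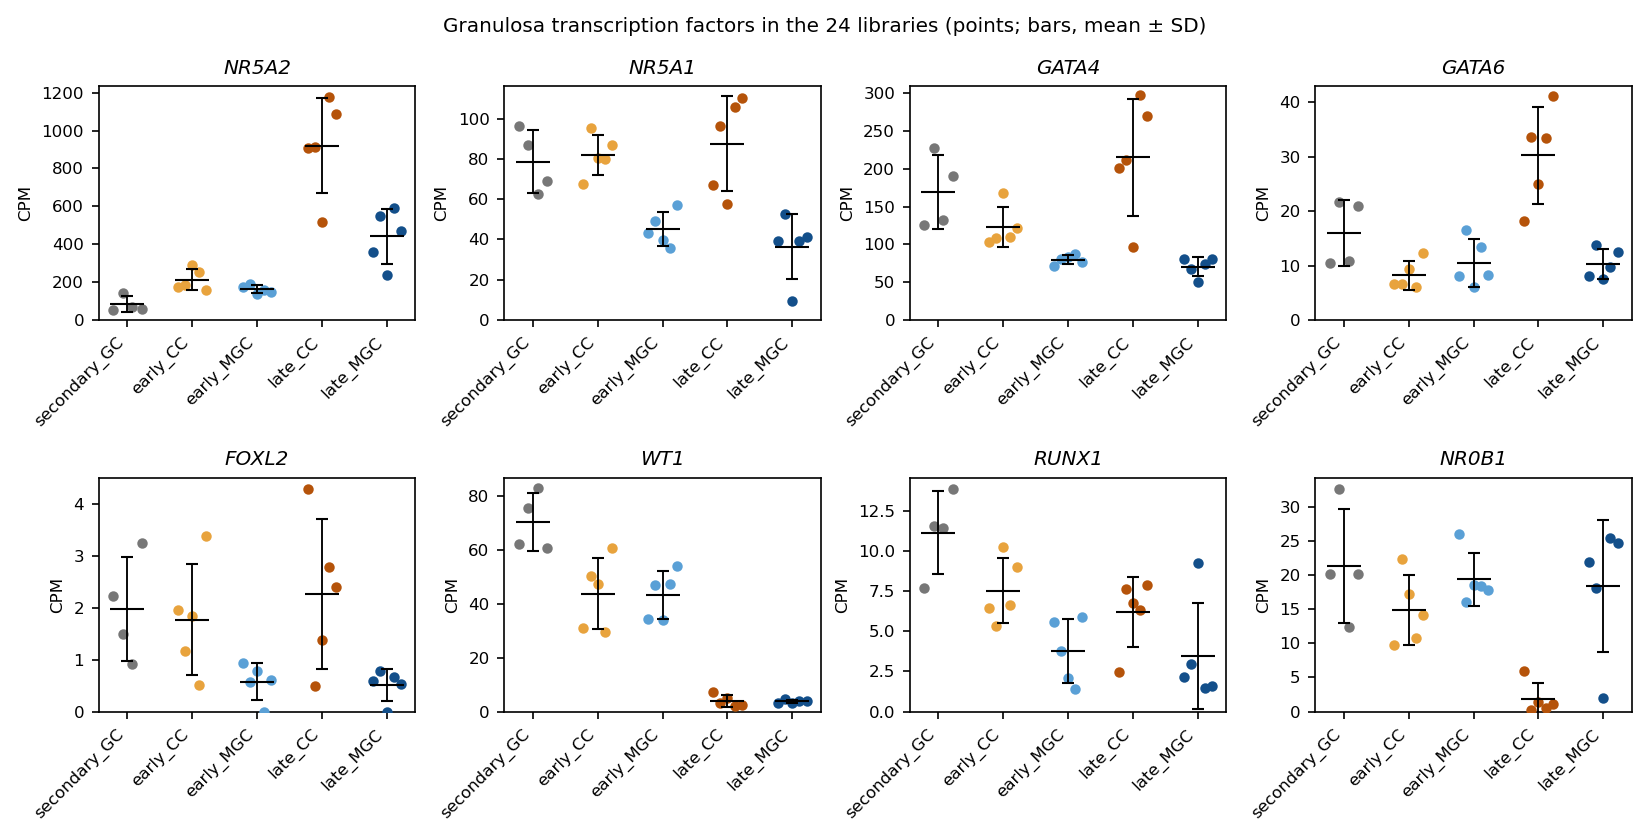
CPM of the 8 genes in the 24 libraries, a panel per gene with its own axis, points for libraries and bars for the mean ± SD of each group in order of follicle growth. NR5A2 reached 920.4 CPM on average in late_CC and WT1 fell to 4.0 CPM there, while NR0B1 was low in late_CC and in the single library late_MGC 3.

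NR5A1, also called SF-1, is the relative of NR5A2 that directs steroid synthesis in the adrenal gland and gonads. It is ENSBTAG00000009017 on chromosome 11 at 95513842 to 95538735. It had 96.4, 86.9, 62.4 and 68.9 CPM in secondary_GC, 67.4, 95.1, 80.4, 79.9 and 86.7 CPM in early_CC, and 43.3, 49.1, 39.5, 35.9 and 57.2 CPM in early_MGC. It had 67.1, 96.5, 57.7, 106 and 110.2 CPM in late_CC and 39.3, 52.7, 9.53, 39.4 and 41.3 CPM in late_MGC, where the lowest value is that of late_MGC 3. The cumulus and secondary libraries thus lay above the mural ones, with no overlap at either antral stage. It was 1.02 ± 0.27 higher on the log2 scale in late_CC than in late_MGC (adjusted p = 0.00429, edgeR), and 0.77 higher without late_MGC 3 (adjusted p = 0.00062, edgeR). In early follicles the difference was 0.76 ± 0.27 and was not called (early_CC minus early_MGC, adjusted p = 0.0629, edgeR). The stage changes were 0.09 ± 0.27 in cumulus cells (adjusted p = 0.802, edgeR) and -0.17 ± 0.27 in mural cells (adjusted p = 0.71, edgeR). Against secondary_GC it was 0.84 ± 0.29 lower in late_MGC (log2 fold change -0.84, adjusted p = 0.0266, edgeR), a call that was lost where the fit held these 2 groups alone (adjusted p = 0.118) and without secondary_GC 1 or 2. No step between neighbours in its order of levels (late_CC, early_CC, secondary_GC, early_MGC, late_MGC) was called.

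The balance between the 2 receptors shifted with follicle growth. As a log2 ratio of levels per kilobase, NR5A2 over NR5A1 was -0.98 ± 0.66 in secondary_GC (SD, n = 4), 0.39 ± 0.43 in early_CC, 0.90 ± 0.31 in early_MGC, 2.43 ± 0.23 in late_CC and 2.77 ± 0.58 in late_MGC (SD, n = 5 each). All 4 secondary_GC libraries were below 0, at -1.78, -0.22, -0.79 and -1.15, so NR5A1 was the higher of the receptors there. The lowest late library was at 2.21, and the highest, 3.69, was late_MGC 3, in which NR5A1 was low. Without the division by length the ratio in secondary_GC was -0.03 ± 0.66, so its sign there rests on the length correction. These ratios were described and not tested.

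**Figure D4:**
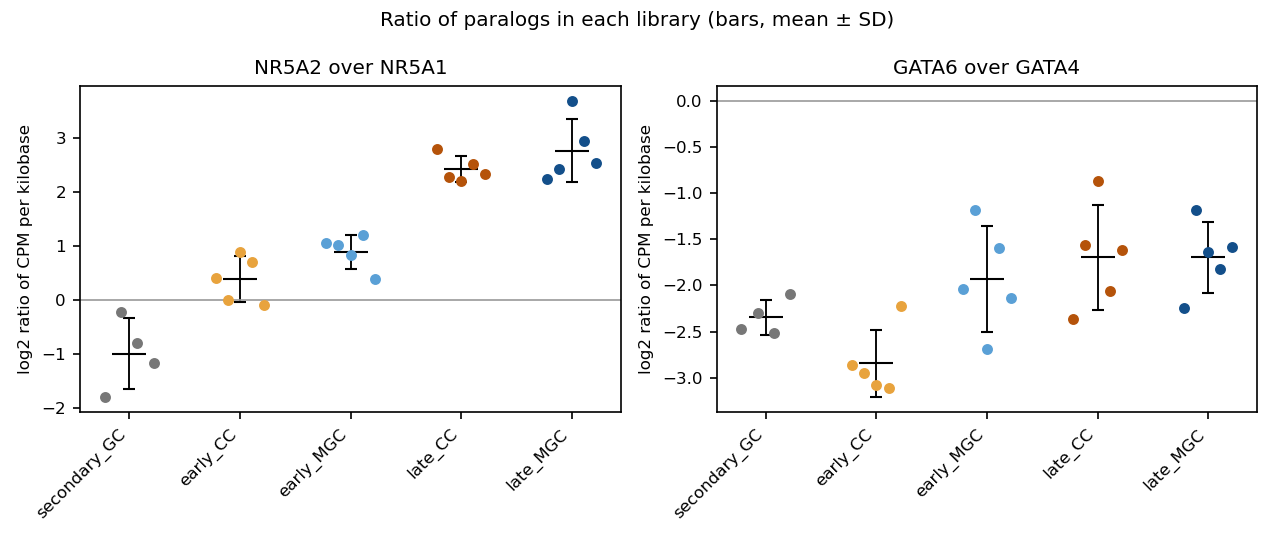
Log2 ratio of NR5A2 to NR5A1 and of GATA6 to GATA4 in levels per kilobase, a point per library and bars for the mean ± SD of each group in order of follicle growth. The receptor ratio climbed to means of 2.43 in late_CC and 2.77 in late_MGC, while GATA6 stayed below GATA4 in every library.

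GATA4 and GATA6 were both higher in late_CC than in early_CC and than in late_MGC. GATA4, which activates genes such as those of inhibin and steroid enzymes, is ENSBTAG00000005425 on chromosome 8 at 7642403 to 7695092; its span overlaps that of the RefSeq gene by 66.8% of their union, the lowest of the 8. It had 201, 212, 96.7, 297 and 269.9 CPM in late_CC, against 103, 109, 169, 110.2 and 122 CPM in early_CC. These groups overlapped, since late_CC 3 lay below every early_CC library and early_CC 3 above the rest of its group. The rise was 0.80 ± 0.24 on the log2 scale (adjusted p = 0.00773, edgeR) and 0.97 without late_CC 3 (adjusted p = 0.00076, edgeR). In mural cells it had 81.2, 67.0, 50.3, 74.2 and 80.4 CPM in late_MGC and 71.1, 80.4, 83.2, 86.9 and 77.1 CPM in early_MGC, a difference of -0.07 ± 0.24 (adjusted p = 0.862, edgeR). Every late_CC library stood above every late_MGC library, and the difference was 1.37 ± 0.24 (adjusted p = 7.3e-05, edgeR).

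Secondary_GC libraries held 125, 228, 133 and 191 CPM of GATA4, more than any mural library. It was lower in late_MGC (log2 fold change -1.0 ± 0.25, adjusted p = 0.00339, edgeR) and in early_MGC (log2 fold change -0.93 ± 0.25, adjusted p = 0.0216, edgeR) than in secondary_GC. The early_MGC call was lost without early_MGC 5, secondary_GC 2 or secondary_GC 4 (adjusted p up to 0.087). The order was late_CC, secondary_GC, early_CC, early_MGC and late_MGC, with no step between neighbours called.

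GATA6, ENSBTAG00000005734 on chromosome 24 at 34163203 to 34192624, overlaps GATA4 in function in mouse granulosa cells. It had 18.2, 33.7, 24.9, 33.5 and 41.2 CPM in late_CC, against 6.67, 6.63, 9.33, 5.99 and 12.3 CPM in early_CC. No late_CC library reached down to the highest early_CC library, and the rise was 1.89 ± 0.30 on the log2 scale (adjusted p = 2.5e-05, edgeR). It had 8.03, 13.8, 7.55, 9.79 and 12.6 CPM in late_MGC and 8.09, 16.6, 6.05, 13.5 and 8.20 CPM in early_MGC, which overlap, with a difference of 0.07 ± 0.30 (adjusted p = 0.891, edgeR). The rise was larger in cumulus than in mural cells by 1.82 ± 0.42 (interaction, adjusted p = 0.00201, edgeR). For GATA4 the same interaction was 0.87 ± 0.33 with an adjusted p of 0.0481 (edgeR), and it was lost without a filter on low counts (adjusted p = 0.104) and when any of 13 single libraries was left out, late_MGC 3 among them (0.75, adjusted p = 0.068), with adjusted p up to 0.093. Late_CC also exceeded late_MGC in GATA6, by 1.33 ± 0.30 (adjusted p = 0.00098, edgeR), with no overlap.

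Secondary_GC libraries held 10.6, 21.7, 10.8 and 20.9 CPM of GATA6, which overlapped late_CC, and the difference of 0.95 ± 0.32 (late_CC minus secondary_GC, adjusted p = 0.0169, edgeR) lost its call without late_CC 5, secondary_GC 1 or secondary_GC 3 (adjusted p up to 0.069). This was the one step between neighbours that was called in its order of late_CC, secondary_GC, early_MGC, late_MGC and early_CC. Per kilobase GATA6 was below GATA4 in every library, with a log2 ratio between -2.84 ± 0.36 in early_CC and -1.69 ± 0.57 in late_CC (SD, n = 5 each).

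WT1 fell at the late stage in both cell types. In mice this Wilms tumour factor holds back steroid genes in immature follicles. It is ENSBTAG00000047268 on chromosome 15 at 63118358 to 63168835. It had 62.2, 75.6, 82.9 and 60.9 CPM in secondary_GC, 31.0, 50.2, 47.5, 29.6 and 60.6 CPM in early_CC, and 34.5, 47.1, 33.9, 47.3 and 54.1 CPM in early_MGC. It had 7.33, 3.24, 4.91, 2.17 and 2.32 CPM in late_CC and 3.34, 4.77, 3.32, 3.79 and 3.89 CPM in late_MGC. The highest late library, at 7.33 CPM, was far below the lowest early one, at 29.6 CPM.

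The log2 fold change of WT1 was -3.40 ± 0.30 in late_CC minus early_CC (adjusted p = 1.2e-08, edgeR) and -3.40 ± 0.30 in late_MGC minus early_MGC (adjusted p = 2.7e-08, edgeR), each a 10.6-fold fall. Leaving out single libraries moved it between -3.71 and -3.22 in cumulus cells and between -3.48 and -3.30 in mural cells, with every call kept. The cell types differed by -0.11 ± 0.28 at the late stage (late_CC minus late_MGC, adjusted p = 0.791, edgeR) and by -0.11 ± 0.27 at the early stage (early_CC minus early_MGC, adjusted p = 0.833, edgeR). All early antral libraries lay below the lowest secondary_GC library, but the differences of -0.67 ± 0.28 (early_CC minus secondary_GC, adjusted p = 0.219, edgeR) and -0.56 ± 0.28 (early_MGC minus secondary_GC, adjusted p = 0.215, edgeR) were not called. In the order secondary_GC, early_CC, early_MGC, late_CC and late_MGC the single called step was late_CC minus early_MGC, at -3.51 ± 0.30 (adjusted p = 4.6e-09, edgeR), where 39.5% of all tested genes were called. The endothelial markers given above were also lower in most late libraries, and PECAM1 and EMCN were at 0 in both early_CC and late_CC. The stromal marker DCN averaged 0.793 ± 0.504 CPM in late_CC against 51.0 ± 54.0 CPM in early_CC (SD, n = 5 each). Summed theca and stroma markers went the other way, with medians of 623 CPM in late_CC and 330 CPM in early_CC. These sums were led by different genes, INSL3 in late_CC, with a mean of 402 CPM, and LUM in early_CC, with a mean of 211 CPM. They therefore do not show that stromal markers rose as a set. The part of these markers in the fall of WT1 was not tested. In late_MGC 3, which had 26.3 CPM of endothelial markers and 276 CPM of DCN, WT1 was 3.32 CPM, against 3.34 to 4.77 CPM in the other late_MGC libraries. In such bulk samples, fewer cells that express a gene and less RNA of it per cell cannot be told apart.

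FOXL2, the forkhead factor of the ovarian somatic lineage, is ENSBTAG00000031277 on chromosome 1 at 130185388 to 130186521, and its counts ran from 0 to 98 per library. It had 4.29, 0.491, 1.38, 2.78 and 2.40 CPM in late_CC and 0.591, 0.786, 0, 0.661 and 0.522 CPM in late_MGC. It had 1.95, 1.17, 1.84, 0.517 and 3.37 CPM in early_CC, 0.926, 0.560, 0.779, 0 and 0.606 CPM in early_MGC, and 2.22, 1.5, 0.921 and 3.25 CPM in secondary_GC. A count of 0 allows up to 0.161 CPM in late_MGC 3 and 0.358 CPM in early_MGC 4 (3 counts, counting error only). Every mural library was under 1 CPM, and most cumulus and secondary libraries were above it, but late_CC 2, early_CC 4 and secondary_GC 3 were as low as mural ones, so the groups overlapped at both stages.

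FOXL2 was 1.91 ± 0.71 higher on the log2 scale in late_CC than in late_MGC (adjusted p = 0.0347, edgeR). That call was lost without the filter on low counts (adjusted p = 0.054), with the 2 groups alone (adjusted p = 0.058) and without late_CC 1, 4 or 5 or late_MGC 1 or 5 (adjusted p up to 0.10). The early difference was 1.48 ± 0.71 and was not called (early_CC minus early_MGC, adjusted p = 0.173, edgeR). Late_MGC minus secondary_GC was -1.66 ± 0.74, with no overlap, and was not called by edgeR (adjusted p = 0.086). DESeq2 called it (-1.76, adjusted p = 0.037). The other antral groups did not differ from secondary_GC by a called step. The stage changes were 0.38 ± 0.67 in cumulus cells (adjusted p = 0.672, edgeR) and -0.06 ± 0.71 in mural cells (adjusted p = 0.968, edgeR). No neighbouring groups in its order (late_CC, secondary_GC, early_CC, early_MGC, late_MGC) differed by a called step.

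RUNX1, which in mice acts with FOXL2 to keep granulosa identity, is ENSBTAG00000004742 on chromosome 1 at 146975141 to 147244722. Another gene lies within this span without sharing exon bases. RUNX1 had 7.70, 11.6, 11.5 and 13.9 CPM in secondary_GC, 6.45, 5.31, 10.3, 6.68 and 9.04 CPM in early_CC, and 5.62, 3.78, 2.1, 1.43 and 5.92 CPM in early_MGC. It had 2.46, 7.66, 6.78, 6.34 and 7.89 CPM in late_CC and 2.16, 2.96, 9.27, 1.44 and 1.57 CPM in late_MGC. The highest mural value of all is that of late_MGC 3, and the lowest late_CC value, that of late_CC 1, falls among the mural ones.

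RUNX1 was lower in mural cells than in secondary_GC, by -1.46 ± 0.44 in early_MGC minus secondary_GC (adjusted p = 0.0377, edgeR) and by -1.5 ± 0.44 in late_MGC minus secondary_GC (adjusted p = 0.0108, edgeR). Without late_MGC 3 the second difference was -2.18 (adjusted p = 9.7e-05, edgeR). The first lost its call without the filter on low counts (adjusted p = 0.051) and without early_MGC 2, 3 or 4 or secondary_GC 2, 3 or 4 (adjusted p up to 0.11). Late_CC minus late_MGC was 0.69 ± 0.42 and not called (adjusted p = 0.194, edgeR), but it was 1.37 and called without late_MGC 3 (adjusted p = 0.0040, edgeR). The stage changes were -0.28 ± 0.41 in cumulus cells (adjusted p = 0.609, edgeR) and -0.04 ± 0.42 in mural cells (adjusted p = 0.957, edgeR). In its order of secondary_GC, early_CC, late_CC, early_MGC and late_MGC no step was called.

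NR0B1, also called DAX1, the corepressor of the NR5A receptors, was low in late cumulus cells. It is ENSBTAG00000015532 on chromosome X at 113283185 to 113289019. It had 6.01, 0.295, 1.38, 0.483 and 1.13 CPM in late_CC, against 9.70, 22.4, 17.3, 10.8 and 14.1 CPM in early_CC. It had 21.9, 18.1, 1.93, 25.4 and 24.7 CPM in late_MGC, 26.1, 16, 18.5, 18.5 and 17.9 CPM in early_MGC, and 20.1, 32.7, 12.4 and 20.2 CPM in secondary_GC. Apart from late_MGC 3, which lies among the late_CC values, every library outside late_CC exceeded every late_CC library.

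NR0B1 fell by 2.93 ± 0.65 on the log2 scale in late_CC against early_CC (adjusted p = 0.00090, edgeR) and was 3.50 ± 0.66 lower in late_CC than in late_MGC (log2 fold change -3.50, adjusted p = 0.00024, edgeR). Without late_MGC 3 the late_CC minus late_MGC value was -3.79 (adjusted p = 7.0e-06, edgeR), and leaving out late_CC 1, the highest of its group, gave -4.13 in late_CC minus early_CC and -4.71 in late_CC minus late_MGC. In mural cells the stage change was 0.05 ± 0.58 (late_MGC minus early_MGC, adjusted p = 0.967, edgeR), and the interaction was -2.98 ± 0.86 (adjusted p = 0.0115, edgeR). Late_CC was also below secondary_GC, by 3.43 ± 0.68 (log2 fold change -3.43, adjusted p = 0.00035, edgeR). The other groups followed in the order secondary_GC, early_MGC, late_MGC and early_CC by CPM, with no step called. TMM scaling, whose factor averaged 0.906 in late_MGC and 1.07 in secondary_GC, turned the small differences among the first 3 of these round.

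**Figure D5:**
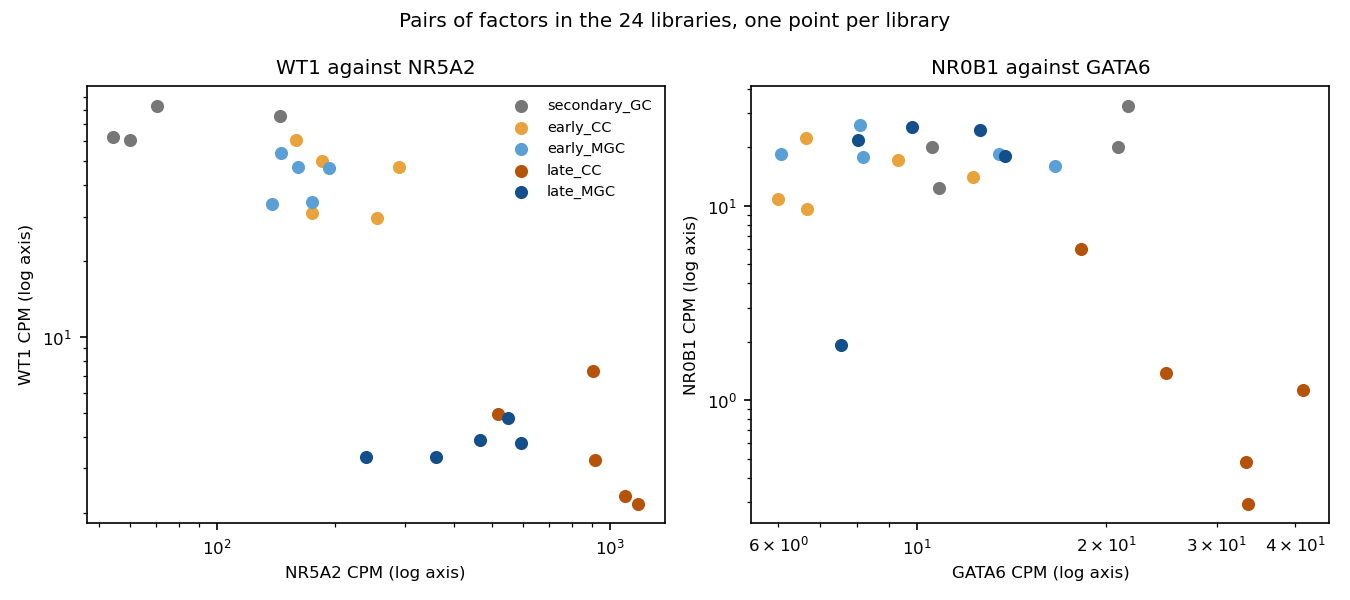
WT1 against NR5A2 and NR0B1 against GATA6 in the 24 libraries, in CPM on log axes, with a point per library coloured by group. Late libraries had 2.17 to 7.33 CPM of WT1 with 239 to 1178 CPM of NR5A2, against up to 289.8 CPM of NR5A2 in the others, and late_CC libraries had 0.295 to 6.01 CPM of NR0B1 with 18.2 to 41.2 CPM of GATA6, against up to 21.7 CPM of GATA6 elsewhere, so both NR5A2 and GATA6 overlap.

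Of all tested genes, 45.2% were called in late_CC minus early_CC and 19.1% in late_MGC minus early_MGC. The shares were 39.7% in late_CC minus late_MGC, 13.1% in early_CC minus early_MGC and 31.4% in the interaction. Against secondary_GC they were 46.0% in late_CC, 31.8% in late_MGC, 9.1% in early_MGC and 1.99% in early_CC. Shares without the 3 libraries are given above. No count in the lists that follow was tested against its share. Of 18 listed coregulators of NR5A receptors, 16 were tested. In late_CC minus early_CC 7 of them rose and 3 fell, with a median log2 fold change of 0.53 against 0.04 over all tested genes. The steroid receptor coactivator NCOA2 rose by 1.55 ± 0.37 (adjusted p = 0.00138, edgeR), to 21.9 ± 4.44 CPM in late_CC against 7.52 ± 3.65 CPM in early_CC (SD, n = 5 each). NR0B2, a corepressor closely related to NR0B1, had a log2 fold change of -3.38 ± 0.86 (adjusted p = 0.00236, edgeR) at 0.158 ± 0.154 CPM in late_CC against 1.68 ± 1.08 CPM in early_CC, and PNRC1, a small coactivator, one of -1.48 ± 0.35 (adjusted p = 0.00152, edgeR). In late_MGC minus early_MGC 1 rose and 1 fell: CTNNB1, beta-catenin, changed by 0.73 ± 0.17 (adjusted p = 0.0030, edgeR) and PNRC1 by -2.03 ± 0.36 (adjusted p = 0.00035, edgeR). The list's median there was -0.14, against 0.05 over all tested genes, and DESeq2 called 5. Without the 3 libraries 7 again rose and 3 fell in cumulus cells, and 1 rose and 1 fell in mural cells, with a median of -0.24 in the mural comparison.

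In late_CC minus late_MGC 4 coregulators were higher and 1 lower, with a median of 0.24 against 0.02 over all tested genes. CREBBP, a histone acetyltransferase, was 1.04 ± 0.16 higher (adjusted p = 2.0e-05, edgeR). The lower gene, CITED2 (-1.79 ± 0.55, adjusted p = 0.0131, edgeR), rested on late_MGC 3, which had 563 CPM against 41.5 to 103 CPM in the other late_MGC libraries, and it was not called without that library (-0.49, adjusted p = 0.23). NCOA2 (0.90 ± 0.36, adjusted p = 0.0499, edgeR) lost its call when any of 7 single libraries was left out. In early_CC minus early_MGC CTNNB1 was higher and NCOA3 and PNRC2 were lower, of which CTNNB1 alone stayed called without the 3 libraries. The CTNNB1 call was lost without early_MGC 5. Against secondary_GC, 10 were called in late_CC, 5 in late_MGC, 1 in early_MGC and 0 in early_CC (1 at an unadjusted p under 0.05, and 0 by DESeq2). The interaction was called for NCOA3 (1.80 ± 0.49, adjusted p = 0.00655), CREBBP (1.27 ± 0.23, adjusted p = 0.00021) and NCOA1 (0.79 ± 0.28, adjusted p = 0.0333), all by edgeR, the last being lost when any of 9 single libraries was left out, and DESeq2 called 6. When the 3 libraries were left out, 3 were higher and 1 lower in late_CC minus late_MGC, 3 carried a called interaction, and 10, 4, 1 and 0 were called against secondary_GC in late_CC, late_MGC, early_MGC and early_CC.

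Of 13 partners and relatives of the GATA and RUNX factors, 10 were tested. In late_CC minus early_CC 4 rose and 1 fell, with a median of 0.69 against 0.04 over all tested genes, of which 45.2% were called. ZFPM2, known as FOG2, the cofactor that binds GATA4 in the gonad, rose by 1.46 ± 0.34 (adjusted p = 0.00125, edgeR), to 34.4 ± 8.12 CPM in late_CC against 12.5 ± 5.50 CPM in early_CC (SD, n = 5 each). RUNX1T1, a corepressor named for its fusion with RUNX1 in human leukaemia, rose by 3.43 ± 0.58 (adjusted p = 4.0e-05, edgeR). CBFB, the partner that RUNX proteins need for firm DNA binding, fell by 1.51 ± 0.38 (adjusted p = 0.00217, edgeR), to 1.92 ± 0.288 CPM in late_CC against 5.54 ± 1.58 CPM in early_CC (SD, n = 5 each).

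In late_MGC minus early_MGC edgeR called 0 of these 10, also 0 at an unadjusted p under 0.05, and DESeq2 called 0, whereas without the 3 libraries 3 were lower. In late_CC minus late_MGC 4 were higher and 1 lower. RUNX1T1 was 3.10 ± 0.57 higher (adjusted p = 0.00012, edgeR) and CBFB 1.17 ± 0.38 lower (log2 fold change -1.17, adjusted p = 0.0158, edgeR). RUNX3 was 3.16 ± 1.11 higher (adjusted p = 0.0255, edgeR), at 2.40 ± 2.55 CPM in late_CC against 0.250 ± 0.520 CPM in late_MGC, a call lost without late_CC 3 (2.23, adjusted p = 0.113) or late_MGC 1, 2, 4 or 5. Late_MGC 3 held 1.18 CPM of it against at most 0.0695 CPM in the other late_MGC libraries, and without that library the difference was 6.17. RUNX1T1 and TRPS1 carried a called interaction, of 2.72 ± 0.79 (adjusted p = 0.0104, edgeR) and 1.44 ± 0.37 (adjusted p = 0.00478, edgeR). In early_CC minus early_MGC 0 were called (2 at an unadjusted p under 0.05, 0 by DESeq2), but without the 3 libraries 2 were lower in early_CC. Against secondary_GC, 5 were called in late_CC and 0 in each of late_MGC, early_CC and early_MGC, where 0, 0 and 1 passed an unadjusted p under 0.05 and DESeq2 called 0. Without the 3 libraries 1 was lower in late_MGC than in secondary_GC, 4 interactions were called, all positive, and in late_CC 3 rose and 1 fell against early_CC, and 4 were higher and 2 lower than in late_MGC.

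Among 18 genes of ovarian determination and granulosa development, 10 were tested. In late_CC minus early_CC 3 rose (SIX4, FOXO1 and ESR2) and 2 fell (FOXO3 and CITED4), with a median of 0.01 against 0.04 over all tested genes. FOXO1, a forkhead factor of growing follicles in mice, rose by 3.22 ± 0.39 (adjusted p = 1.1e-06, edgeR), to 69.1 ± 32.9 CPM in late_CC against 7.46 ± 1.21 CPM in early_CC (SD, n = 5 each). Its interaction was 2.53 ± 0.52 (adjusted p = 0.00071, edgeR), and at the early stage it was lower in cumulus than in mural cells (-2.0 ± 0.37, adjusted p = 0.00141, edgeR). In late_MGC minus early_MGC 3 fell (EMX2, FOXO3 and CITED4), with all libraries. ESR2, the estrogen receptor of granulosa cells, was 1.37 ± 0.40 higher in late_CC than in late_MGC (adjusted p = 0.00807, edgeR), as were SIX4 and CITED4, the last with an adjusted p of 0.0413 that was lost when any of 5 single libraries was left out. The call of FOXO3 in late_CC minus early_CC was lost without late_CC 3, late_CC 4 or early_CC 5, and that in late_MGC minus early_MGC without any of 5 single libraries. Against secondary_GC, 8 were called in late_CC, 6 in late_MGC, 1 in early_MGC (CITED4) and 0 in early_CC (4 at an unadjusted p under 0.05, 1 by DESeq2). With the 3 libraries left out, the counts and the cumulus median changed. In late_CC minus early_CC 3 rose and 1 fell, with a median of -0.50, and in late_MGC minus early_MGC 1 rose and 3 fell. In late_CC minus late_MGC 3 were higher and 1 lower, in early_CC minus early_MGC 1 higher and 1 lower, and the interaction was positive for 2 and negative for 2. Against secondary_GC 6 were then called in late_CC, 7 in late_MGC, 2 in early_MGC and 2 in early_CC.

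Of 12 genes known from the testis side of gonad development, 7 were tested with all libraries and 5 without the 3 that stand apart, and the counts depend on those libraries. With all libraries 0 rose and 1 fell in late_CC minus early_CC, 1 rose and 1 fell in late_MGC minus early_MGC, and 1 was higher in late_CC than in late_MGC. Without the 3 libraries 1 rose and 3 fell, 0 rose and 3 fell, and 3 were higher and 2 lower in the same comparisons. The list's median in late_CC minus early_CC was 0.84 with all libraries and -3.09 without the 3, over different numbers of genes. PTGDS, a prostaglandin D synthase that in mice helps to turn on the Sertoli cell programme, fell in both cell types, with a log2 fold change of -3.38 ± 0.58 to 128 ± 63.0 CPM in late_CC against 1333 ± 498 CPM in early_CC (adjusted p = 7.4e-05, edgeR), and with a log2 fold change of -4.66 ± 0.61 to 21.4 ± 16.2 CPM in late_MGC against 607 ± 237 CPM in early_MGC (adjusted p = 1.9e-05, edgeR, SD, n = 5 each). It was 2.29 ± 0.55 higher in late_CC than in late_MGC (adjusted p = 0.0023, edgeR). CLDN11, a junction protein of Sertoli cells, was 4.30 ± 1.24 lower in early_CC than in early_MGC (log2 fold change -4.30, adjusted p = 0.0254, edgeR), a call lost when any of 5 single libraries was left out. CYP26B1, which breaks down retinoic acid, was called higher in late_MGC than in early_MGC, but this rested on late_MGC 3, with 72.0 CPM against 0 to 0.421 CPM in the other late_MGC libraries, and was not called without it (-0.78, adjusted p = 0.72, edgeR). The interaction was called for 0 of the 7 (1 at an unadjusted p under 0.05, 0 by DESeq2), but for 3 of 5 without the 3 libraries, 2 positive and 1 negative. Against secondary_GC, 1 was called in late_CC, 2 in late_MGC, 1 in early_MGC and 0 in early_CC (1 at an unadjusted p under 0.05, 0 by DESeq2), PTGDS being lower in each of the first 3. On leaving out the 3 libraries, 3, 3, 1 and 1 were called, all lower.

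Of 18 steroid synthesis genes and granulosa targets of these factors, 14 were tested, and most of those called rose at the late stage. In late_CC minus early_CC 6 rose and 1 fell, with a median of 0.93 against 0.04 over all tested genes, and in late_MGC minus early_MGC 8 rose and 1 fell, with a median of 1.63 against 0.05. With the libraries that stand apart left out, 9 rose and 1 fell in cumulus cells and 10 rose and 1 fell in mural cells, with medians of 1.05 and 1.04. INHBA, a subunit of activin and inhibin, rose by 4.71 ± 0.83 in cumulus cells (adjusted p = 0.00011, edgeR), to 7050 ± 4612 CPM in late_CC against 261 ± 64.1 CPM in early_CC, and by 4.49 ± 0.82 in mural cells (adjusted p = 0.00063, edgeR), to 1440 ± 1095 CPM in late_MGC against 69.5 ± 36.0 CPM in early_MGC (SD, n = 5 each). In late_CC 3 INHBA was at 191 CPM, within the early_CC range of 163 to 316 CPM, against 4890 to 11334 CPM in the other late_CC libraries. In late_MGC 3 it was at 89.8 CPM, within the early_MGC range of 30.2 to 109 CPM, against 726 to 2572 CPM in the other late_MGC libraries. AMHR2, the receptor of anti-Müllerian hormone, fell by 2.39 ± 0.44 in cumulus cells (adjusted p = 0.00011, edgeR). HSD3B1, which turns pregnenolone into progesterone, rose by 3.66 ± 0.48 in mural cells (adjusted p = 1.6e-05, edgeR), to 141 ± 93.8 CPM in late_MGC against 11.5 ± 4.64 CPM in early_MGC (SD, n = 5 each), and its change was smaller in cumulus cells (interaction -2.34 ± 0.62, adjusted p = 0.00632, edgeR).

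STAR, the cholesterol carrier of the mitochondrion, was called higher in late_MGC than in early_MGC (3.43 ± 0.84, adjusted p = 0.00651, edgeR) and lower in late_CC than in late_MGC. Both rested on late_MGC 3, which had 123 CPM against 1.74 to 4.71 CPM in the other late_MGC libraries, and neither was called without it (0.46, adjusted p = 0.31, and 0.44, adjusted p = 0.27, edgeR). In late_CC minus late_MGC 4 were higher (SCARB1, INHBA, INHBB and AMH) and 2 lower (STAR and FDX1), but without the 3 libraries 7 were higher and 1 lower. In early_CC minus early_MGC 4 were higher, and 8 without the 3 libraries, among them CYP11A1, the enzyme that opens steroid synthesis, at 56.3 ± 18.6 CPM in early_CC against 13.5 ± 5.75 CPM in early_MGC (1.96 ± 0.40, adjusted p = 0.00275, edgeR). Against secondary_GC, 9 were called in late_CC, 8 in late_MGC, 1 in early_CC and 1 in early_MGC, and without the 3 libraries 11, 11, 6 and 3. The interaction was negative for 2 (HSD3B1 and FDX1), and without the 3 libraries negative for 4 and positive for 1.

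The genes most like each factor across the 24 libraries were ranked by Pearson's r of log2(CPM + 1) among 10251 genes with a symbol and a mean of at least 1 CPM. These values take in differences between the 5 groups as well as those within them and are descriptive. Nearest to NR5A2 were UGGT2 (r = 0.959), B4GALT6 (0.931) and KCNN1 (0.927). UGGT2, a folding sensor of glycoproteins, averaged 16.6 CPM in secondary_GC, 26.5 CPM in early_CC, 29.7 CPM in early_MGC, 99.9 CPM in late_CC and 47.1 CPM in late_MGC. Nearest to WT1 were MGC133636 and PLAC1 (each 0.971) and NKD1 (0.963), an inhibitor of WNT signalling that averaged 18.3 CPM in secondary_GC, 23.6 CPM in early_CC and 21.2 CPM in early_MGC, against 0.122 CPM in late_CC and 0.175 CPM in late_MGC.

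Nearest to GATA4 were NRXN2 (0.957), the Notch ligand gene DLL4 (0.939) and TP53I13 (0.920). DLL4 averaged 14.5 CPM in secondary_GC, 6.26 CPM in early_CC, 3.74 CPM in early_MGC, 26.1 CPM in late_CC and 1.51 CPM in late_MGC. Nearest to GATA6 were STIM1 (0.891), COL16A1 (0.886) and XYLT1 (0.885), and to NR5A1 LGALS9 (0.926), SLC27A1 (0.921) and TLL2 (0.919). FOXL2, the gene with the fewest counts, had the weakest neighbours, ABHD17A (0.790), HDHD5 (0.782) and ERP44 (0.779). RUNX1 was nearest to HECTD3 (0.901), FNDC4 (0.851) and CSRNP1 (0.845). NR0B1 was nearest to H2BC15 (0.919), FMC1 (0.914) and STX8 (0.910), of which H2BC15 belongs to the histone family, whose near-identical copies may share reads.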

How the data were processed

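The deposited table holds raw counts per gene for 24 libraries, prepared per the labels with a low-input full-length cDNA kit. Per the file headers, the authors counted exon reads with featureCounts 2.0.0 on the Ensembl 105 annotation of ARS-UCD1.2. The part of the command read here sets no strand option, so a gene and an antisense transcript cannot be told apart. Another deposited column, each gene's summed exon length in bases, served to divide levels by length. In the submitters' processing notes stand fastp 0.20.0, SAMtools 1.10 and HISAT2 2.1.0. Left out was 1 column that belongs to no sample, with 41567882 undetermined counts (8.3%). No count at all was found for 6590 of the 27607 genes.

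Library totals had a median of 18070281.5 counts. Libraries of late_MGC and secondary_GC are numbered in column order. Within groups, none of 46 pairs of libraries was a copy (chi-square per degree of freedom at least 17.6). Floors of 3 counts cover counting error only.

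Symbols were assigned by position, through the reciprocal best overlap (at least 0.5 of the union) with RefSeq spans of ARS-UCD2.0, which named 10805 (88.4%) of the 12219 genes averaging 1 CPM or more, and 120 of the 129 listed genes. Identical gene ends made up 17.9% to 37.8% per chromosome, and no more than 0.103% when spans were moved by 1000 bases. Moved by 1000000 bases, 1004 genes still took a name, so a single name can be wrong. NR5A2 was fixed by its identifier.

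The main test was edgeR 4.0.16 in R 4.3.3 (quasi-likelihood, TMM, filterByExpr, robust dispersions, 24 libraries in 1 fit by group, biological coefficient of variation 42.4%). Fold changes carry TMM scaling, whereas CPM values do not. SE was derived from the test statistic. The fit was checked on simulated data. Alternatives were RLE scaling, no filter, DESeq2 1.42.0, the compared groups alone, each library left out, the 3 libraries that stand apart left out, and a replicate block. The 8 genes and all lists were chosen with earlier results of these data known. Besides the 8, the genes named are up to 3 called genes per list and comparison by absolute log2 fold change, and the 3 genes most like each of the 8. Other list genes are named only to spell out a count, after their values were seen.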

Additional observations from a re-analysis of the deposited data

Results flagged for a closer look

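In 5 of the 40 sets of values of a gene in a group of 5 or 4 libraries, a single library lay apart from the rest by Dixon's criterion, which chance alone meets in about 1 in 20 groups. GATA4 had 169 CPM in early_CC 3, with the next library at 122 CPM. RUNX1 had 2.46 CPM in late_CC 1, with the next at 6.34 CPM, and 9.27 CPM in late_MGC 3, with the next at 2.96 CPM. NR0B1 had 26.1 CPM in early_MGC 1, with the next at 18.5 CPM, and 6.01 CPM in late_CC 1, with the next at 1.38 CPM. In late_MGC 3, 7 of 11 theca and stroma markers lay above and 3, INSL3 among them, below the other late_MGC libraries, and of 12 granulosa markers 3 lay above and 8, FSHR among them, below. Their part in its RUNX1 level was not tested.

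The change from early to late stage differed between cumulus and mural cells, by the interaction term of edgeR's quasi-likelihood test, for GATA6 (1.82, adjusted p = 0.00201), NR0B1 (-2.98, adjusted p = 0.0115) and GATA4 (0.87, adjusted p = 0.0481). The GATA4 call was lost without a filter on low counts (adjusted p = 0.104, edgeR) and without many of the single libraries, as given above.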

How the results depend on the processing

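Of 72 results (8 genes in 9 comparisons), 29 were called, 21 of them under every alternative run for their comparison. A comparison was rerun without each of its own libraries only, and the replicate block was run for late_CC minus early_CC and early_CC minus early_MGC. The other 8 lost their call under at least 1 alternative, 8 uncalled results gained one, and no called result changed sign. Called genes of the 8 in early_CC minus secondary_GC were 1, and 2 with DESeq2 and without the 3 libraries that stand apart. In early_CC minus early_MGC they were 0, and 1 with the 2 groups alone, 2 without the 3 libraries, and 1 with a replicate block, as in the same 3 groups without it (NR5A1, adjusted p = 0.0025 and 0.0027). Leaving out single libraries gave 3 to 4 calls in late_CC and 4 to 5 in late_MGC minus secondary_GC, 0 to 1 in early_CC and 0 to 3 in early_MGC minus secondary_GC, 5 to 7 in late_CC minus late_MGC and 2 to 3 in the interaction. In the lists, DESeq2 called 2 testis-side genes against 1 in late_CC minus early_CC and in late_CC minus late_MGC, 1 against 2 in late_MGC minus early_MGC and late_MGC minus secondary_GC, 2 ovarian determination genes against 1 in the interaction and in early_MGC minus secondary_GC, and 4 steroid genes against 2 in the interaction. Uncalled results that changed sign are given as log2 fold changes, and the causes were not tested. NR0B1 was -0.0137, -0.00866 and -0.0155 in late_MGC minus secondary_GC with RLE, the groups alone and DESeq2, and -0.0125, -0.0168 and -0.0138 in late_MGC minus early_MGC with the same. In early_MGC minus secondary_GC it was -0.00116 with RLE, -0.0149 without the 3 libraries and -0.00174 with DESeq2. Without the 3 libraries NR5A1, GATA4 and FOXL2 were 0.067, 0.153 and 0.00758 in late_MGC minus early_MGC, and the RUNX1 interaction was 0.553. The WT1 interaction was 0.0603, 0.0616 and 0.0602 with RLE, the groups alone and DESeq2. Leaving out single libraries gave these ranges: in late_CC minus secondary_GC, FOXL2 (-0.134 to 0.598); in late_MGC minus secondary_GC, NR0B1 (-0.10 to 0.369); in early_CC minus secondary_GC, FOXL2 (-0.458 to 0.223); in early_MGC minus secondary_GC, NR0B1 (-0.149 to 0.316); in late_CC minus early_CC, NR5A1 (-0.00787 to 0.213); in late_MGC minus early_MGC, RUNX1 (-0.73 to 0.165), NR0B1 (-0.0863 to 0.343), GATA6 (-0.0678 to 0.262), NR5A1 (-0.31 to 0.0839), GATA4 (-0.174 to 0.0524), FOXL2 (-0.316 to 0.257); in late_CC minus late_MGC, WT1 (-0.43 to 0.0737); in the interaction, RUNX1 (-0.44 to 0.456), WT1 (-0.282 to 0.182). The counts over all tested genes differed by over 1.5 times in late_MGC minus secondary_GC (4550, and 2812 with the groups alone), early_CC minus secondary_GC (285, and 964 with the groups alone, 1304 without the 3 libraries, 722 with DESeq2, and 150 to 182 without early_CC 1, 2, 3 or 4 or secondary_GC 2 or 4), early_MGC minus secondary_GC (1301, and 516 to 861 without early_MGC 4 or secondary_GC 1, 2 or 4), late_MGC minus early_MGC (2726, and 1607 with the groups alone) and early_CC minus early_MGC (1873, and 3035 with the groups alone, 1222 without early_MGC 5). Same-numbered libraries of late_CC, early_CC and early_MGC correlated at -0.147 to 0.242 in their deviations. Number 1 correlated highest with its own number in each pair of these groups (0.203, 0.218 and 0.242). Number 2 of early_CC did so in early_MGC (0.182). The remaining numbers did not, and the numbers were not taken as pairs. Whether libraries of number 1 share an origin was not tested. FOXL2, with at most 98 counts in a library, is the gene that depth limits most.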
